A study of Mus musculus with 5 samples.

Results

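RNA polymerase II was mapped in the kidney of adult FVB mice by chromatin immunoprecipitation and sequencing, and the kidney library was set against brain, liver, lung and spleen of the same strain. Members were the positions listed by the authors as kidney peaks, each extended by 250 bp to both sides and merged where the extensions overlapped. The 81375 kidney positions gave 78414 windows, against 186413 when the windows of all 5 tissues were merged. Reads were counted in each window at their 5′ end, in every library. Each tissue was freshly dissected, fixed with formaldehyde and represented by 1 library, and without replicates no test between tissues was made. The sources used here do not give the number of animals behind a library, and no input library was used here. Intervals cover counting error only, since amplified reads that carry no molecular identifiers need not be independent. In bulk tissue, fewer cells of a type and less polymerase per cell cannot be told apart.

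The kidney is built of nephrons. Blood is filtered at the glomerulus, and the proximal tubule then takes back most of the filtered salt, glucose, amino acids, phosphate and protein. The loop of Henle, the distal tubule and the collecting duct adjust salt, water and acid. RNA polymerase II gathers at the starts of active genes and, where a gene is transcribed heavily, is also found along its whole length, so that a long transcribed gene can appear as a row of neighbouring peaks. The antibody does not tell which gene is read, and the windows are described by their deposited positions.

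The sources used here give no genome build, and the coordinates fit the mouse assembly mm9. No annotation of that assembly was used here, so no count below was made over annotated genes. For 5 places, the gene known to lie there in mm9 is named as background, from general knowledge, with no annotation file to check it: Lrp2, Slc34a1, Aadat, Slc12a1 and Umod. No rule fixed beforehand picked these 5, and the other windows and runs described below were left unnamed. The 5 names therefore do not show which genes lie at kidney-high windows in general. Lrp2 encodes megalin, the receptor by which the proximal tubule takes up filtered protein. Slc34a1 encodes the sodium phosphate cotransporter of the proximal tubule brush border. Aadat encodes an aminotransferase that acts on kynurenine and aminoadipate. Slc12a1 encodes the sodium potassium chloride cotransporter of the thick ascending limb, the target of loop diuretics. Umod encodes uromodulin, the main protein of normal urine, made in the same segment.

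The start sequences of these 5 genes are shown because the kidney rows of polymerase described below lie where these genes are known to be. They are RefSeq sequences of assembly GRCm38, matched by symbol, 5 of 5, each from 250 bases before to 50 bases after the gene's start and written 5′ to 3′ along the gene. They were not read from the deposited coordinates, and whether a window covers them was not examined. Capitals mark matches on either strand to GTTAAT, the core of the HNF1 motif, to CAAAGT, the core of the HNF4 motif, and to TATAAA. HNF1 and HNF4 factors are known regulators of proximal tubule genes.
Lrp2: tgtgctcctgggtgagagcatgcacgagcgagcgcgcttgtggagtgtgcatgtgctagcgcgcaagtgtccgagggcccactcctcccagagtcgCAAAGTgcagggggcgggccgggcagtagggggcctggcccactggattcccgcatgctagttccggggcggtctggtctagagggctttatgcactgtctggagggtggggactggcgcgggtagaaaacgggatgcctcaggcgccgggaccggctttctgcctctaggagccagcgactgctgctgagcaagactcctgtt
Slc34a1: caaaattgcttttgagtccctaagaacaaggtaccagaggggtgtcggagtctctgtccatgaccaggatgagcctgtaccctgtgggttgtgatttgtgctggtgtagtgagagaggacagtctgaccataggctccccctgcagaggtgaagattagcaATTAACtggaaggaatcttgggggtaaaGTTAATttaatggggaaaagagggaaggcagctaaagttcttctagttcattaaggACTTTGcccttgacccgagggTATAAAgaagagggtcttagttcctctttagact
Aadat: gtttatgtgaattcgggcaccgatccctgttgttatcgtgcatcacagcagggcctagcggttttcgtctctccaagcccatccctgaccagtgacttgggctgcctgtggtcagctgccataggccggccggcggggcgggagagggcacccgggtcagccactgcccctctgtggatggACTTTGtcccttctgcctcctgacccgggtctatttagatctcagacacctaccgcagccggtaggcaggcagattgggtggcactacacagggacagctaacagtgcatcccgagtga
Slc12a1: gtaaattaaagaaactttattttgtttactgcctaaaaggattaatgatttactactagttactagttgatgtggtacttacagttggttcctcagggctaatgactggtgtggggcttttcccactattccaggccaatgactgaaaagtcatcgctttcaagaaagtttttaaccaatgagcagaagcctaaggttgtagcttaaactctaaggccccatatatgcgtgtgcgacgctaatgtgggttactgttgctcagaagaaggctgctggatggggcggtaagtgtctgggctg
Umod: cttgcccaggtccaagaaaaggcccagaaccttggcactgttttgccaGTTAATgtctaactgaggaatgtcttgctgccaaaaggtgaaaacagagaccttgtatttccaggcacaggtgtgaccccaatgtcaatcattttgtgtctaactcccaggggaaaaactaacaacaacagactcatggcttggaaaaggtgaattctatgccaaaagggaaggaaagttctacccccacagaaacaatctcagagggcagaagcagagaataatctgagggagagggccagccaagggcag
The Slc34a1 sequence held 2 matches to GTTAAT, 1 to CAAAGT and 1 to TATAAA. The Umod sequence held 1 match to GTTAAT. The Lrp2 and Aadat sequences held 1 match each to CAAAGT, and the Slc12a1 sequence held none of the 3 motifs. Among all 32851 start sequences of this length in the table, 7.10% held GTTAAT, 14.4% CAAAGT and 13.6% TATAAA. A match is a run of letters and shows no binding.

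Kidney peaks were numerous and mostly shallow, and their width was not measured, since the windows take theirs from the extension. The windows covered 40.6 Mb, 1.57% of the sequence between the first and last aligned reads of the chromosomes, and held 1644941 of the 13786536 kidney reads, or 11.9%. Of the windows, 75650 held a single kidney position and 2764 held more, up to 5 in a window. The median window held 16 kidney reads, with quartiles of 13 and 23, where the mean density of the whole kidney library would put 2.68 reads in a window of 1 position. At least 20 kidney reads lay in 26851 windows, at least 50 in 3327 and at least 100 in 441. The other libraries held 6 to 9 reads in the median kidney window, and all 4 were above their own genome mean there. Read density in the kidney windows was 7.58 times the genome mean in kidney and from 3.31 times in spleen to 6.29 times in lung elsewhere. The kidney windows were placed where kidney reads are dense, so a higher kidney value is built into them and is a description only.

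Libraries were put on one scale by medians of ratios over the 3429 kidney windows with at least 20 reads in every library, and a normalised read is a read divided by that factor. The kidney factor was 0.997, beside 0.676 for spleen, 1.13 for lung, 1.00 for brain and 1.31 for liver. Scaling by total reads instead would move the normalised values by -0.15 on the log2 scale in kidney, -0.65 in spleen, 0.38 in lung, 0.29 in brain and 0.13 in liver. Relative to kidney, the choice moves spleen and lung most, in opposite directions.

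Windows were also sorted by whether another tissue had a peak of its own in them. Of the 78414 kidney windows, 26409 (33.7%) held no peak of another tissue and 8332 (10.6%) held a peak of all the other 4. Windows common to all 5 tissues were the deepest, with a median of 33 kidney reads against 14 in windows with a kidney peak alone. Among windows shared with a single other tissue, 7604 were shared with lung, 6384 with brain, 5948 with liver and 929 with spleen. The spleen list was the shortest of the 5, at 31594 peaks, which limits how often it can be shared. In windows shared with lung alone the median normalised reads were 15.0 in kidney and 10.6 in lung, and 4.58 to 7.40 in the other 3 libraries. In windows shared with liver alone the liver median was 13.0, against 16.1 in kidney and 3.98 to 5.92 in the other 3 libraries. More reads of a tissue are built in where its own list has a peak, so these medians are a description only.

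**Figure D1:**
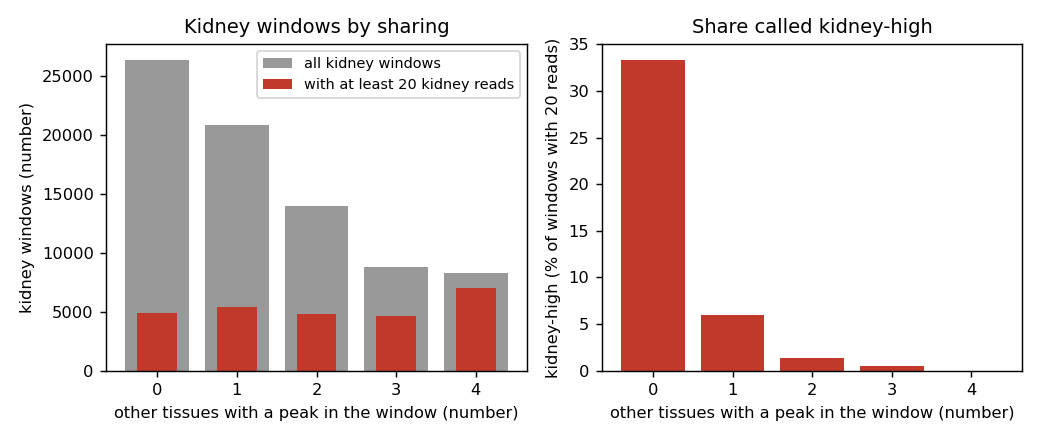
Left, the number of kidney windows (grey) and of those with at least 20 kidney reads (red) by the number of other tissues with a peak in the window; right, the percentage of the windows with 20 reads that were kidney-high. The number of windows falls from 26409 with no other tissue to 8332 with all 4, while the kidney-high share falls from 33.4% to 0.0142%.

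Against each tissue singly, kidney was at least 4-fold higher in between 25.5% and 33.3% of the 26851 windows with at least 20 kidney reads. These were 8930 windows over brain (33.3%), 7808 over liver (29.1%), 7150 over spleen (26.6%) and 6852 over lung (25.5%). Over the mean of the 4 other libraries, 5165 windows (19.2%) reached 4-fold. The median log2 difference of kidney over the other library in these windows was 1.17 for brain, 1.19 for liver, 1.13 for lung and 1.23 for spleen. It was far smaller at the 7060 such windows with a peak in all 5 tissues, from 0.16 for brain to 0.25 for spleen, and largest in the windows with a kidney peak alone, from 2.14 for spleen to 2.82 for brain. The scale was set on windows with at least 20 reads in every library, which tends to level the libraries at common windows. Windows with a kidney peak alone were picked by the lack of other listed peaks. The contrast is thus partly built in and is a description only. With scaling by total reads, the windows at 4-fold over spleen became 11141 and those over lung 4132, so the order of the tissues in these counts rests on the scale. Within 2-fold of kidney lay 11769 of the 26851 windows for brain, 11755 for lung, 11168 for liver and 10898 for spleen.

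A smaller set of kidney windows held far more reads of another tissue. Liver was at least 4-fold above kidney in 302 windows (0.385% of all kidney windows, with at least 20 liver reads), lung in 89 (0.114%), spleen in 66 (0.0842%) and brain in 61 (0.0778%). The mean of the other 4 libraries was 4-fold above kidney in 33 windows (0.0421%). The widest such difference lay on chromosome 5 from 90891381 to 90891881, where kidney held 21 reads, brain 12, lung 9, spleen 27 and liver 1907. On chromosome 11, from 58762036 to 58762536, brain held 186 reads, kidney 17 and the other 3 libraries 4 to 12. On chromosome 15, from 101103486 to 101103986, lung held 163 reads, kidney 12 and the other 3 libraries 4 to 9. These 3 windows, picked after their values were seen, are places where a position listed as a kidney peak was not high in kidney among the 5 libraries.

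Kidney-high windows, those with at least 20 kidney reads and at least 4-fold over every other library, numbered 2038. They made up 2.6% of all kidney windows and 7.59% of those with 20 reads. At least 8-fold were 198 of them and at least 10-fold 75. Their kidney reads ran from 20 to 561, with a median of 32. In 69 of them no other library reached 3 reads. For comparison, the same rule applied to each tissue's own windows, scaled on those windows, called 2789 of the 25400 liver windows with 20 reads, 9.59% of the spleen ones, 1.15% of the lung ones and 5.60% of the brain ones. These shares come from 1 library per tissue and from windows that are not independent, so they are a description with no test of the tissues. Just inside the threshold, windows held 53, 64 and 39 kidney reads, against 15 in lung, 21 in liver and 11 in lung, the last at 4.02-fold. Just outside it were 74, 47 and 47 reads, all at 3.99-fold.

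Most kidney-high windows had no peak in another tissue. This held for 1623 of the 2038, and 1 kidney-high window had a peak in all 5. Among all 26851 windows with 20 kidney reads, 4865 had no peak in another tissue and 7060 had a peak in all 5. A 4-fold call over every library and the lack of other listed peaks are related by construction, so this is a description only. The other libraries were ranked after counts under 3 were set to 3 and divided by the factor. The next highest library was spleen in 1034 windows (50.7%), lung in 473 (23.2%), liver in 334 (16.4%) and brain in 197 (9.67%). Spleen has the lowest factor, so its few reads, or a count raised to 3, weigh most here. On chromosome 8, from 63002451 to 63002951, spleen ranked next with 0 reads, above lung with 5. How many of the 1034 windows rest on a raised spleen count was not examined. With spleen left out, 2754 windows were kidney-high, and 1896 of them were among the 2038.

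**Figure D2:**
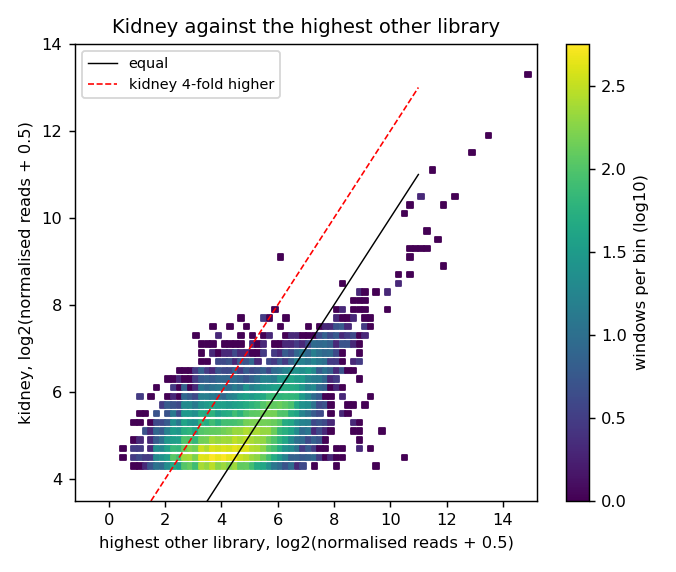
Kidney windows with at least 20 kidney reads, binned by the normalised reads of the highest other library (horizontal) and of kidney (vertical), both as log2 of reads plus 0.5; colour gives the windows per bin on a log10 scale. The 2038 kidney-high windows are above the dashed 4-fold line or close to it. Because 0.5 is added on both axes, windows called just inside 4-fold can fall slightly below the line. Counts under 3 are drawn as they are, although calls set them to 3. The deepest window of all, with 9880 kidney reads, is to the right of the line of equal reads.

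The leading kidney-high window lay on chromosome 13 from 55500836 to 55501336, at the place of Slc34a1. It held 162 reads in kidney, 9 in lung, 5 in spleen, 2 in brain and 1 in liver, so that all other libraries lay far below kidney. The fold over lung was 20.4 (95% exact interval 10.5 to 45.4), and over the mean of the 4 it was 31.5. The intervals of these leading windows do not cover their choice for a large fold. With 500 bp to each side of the kidney position the fold of this window was 11.1.

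The second lay on chromosome 2 from 69277021 to 69277971, at the place of Lrp2. It held 96 reads in kidney, 6 in lung, 3 in spleen and 2 each in brain and liver. The fold over lung was 18.1 (8.03 to 50.6), and the fold over the next highest library was 5.50 with 100 bp to each side. This window was 1 of many along a long row, and its centre stood only 1.27 times above the sequence 1 to 5 kb away.

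Of the 10 leading windows, 3 lay close together on chromosome 8, at the place of Aadat. From 63004651 to 63005151 kidney held 138 reads, spleen 6, liver and lung 4 each and brain 2, a fold of 15.6 (6.99 to 43.2) over spleen. With the spleen library left out, the fold over the next highest library was 36.2. From 63003001 to 63003501 kidney held 76 reads, brain 0 and the other 3 libraries 3 each, 17.2-fold (5.66 to 85.2) over spleen, and 2.10-fold over the next highest library with 100 bp to each side. From 63002451 to 63002951 kidney held 67 reads, lung 5, liver 1 and brain and spleen 0. In these 3 windows no other library passed 6 reads.

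On chromosome 14, 2 of the leading windows lay side by side. From 21663066 to 21663566 kidney held 77 reads, lung 4, liver 2 and brain and spleen 1 each. From 21658616 to 21659116 kidney held 83 reads, lung 6, brain and liver 5 each and spleen 3, 15.7-fold (6.90 to 43.9) over lung, and 5.86-fold over the next highest library with 500 bp to each side. A listed lung peak, extended by 250 bp, overlapped the second of these windows, and its position may lie outside it. The window held 6 lung reads.

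The remaining 3 leading windows lay on chromosomes 7, 5 and 13. On chromosome 7, from 126704961 to 126705461, kidney held 70 reads, brain, liver and spleen 2 each and lung 1. On chromosome 5, from 104863941 to 104864441, kidney held 69 reads, liver 6, lung 4, brain 2 and spleen 0, 15.1-fold (6.60 to 42.6) over liver, and 6.42-fold over the next highest library with 500 bp to each side. The chromosome 7 window and the chromosome 5 window were the sharpest of the 10, at 8.28 and 6.90 times the density of their flanks. On chromosome 13, from 74281561 to 74282061, kidney held 68 reads, liver 6, lung 4, spleen 2 and brain 0, 14.9-fold (6.50 to 42.0) over liver, and 6.03-fold over the next highest library with 100 bp to each side.

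**Figure D3:**
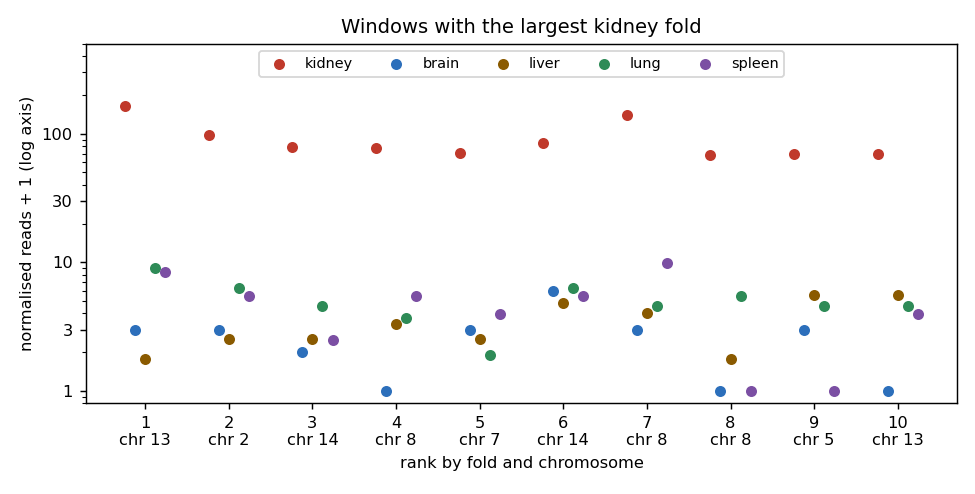
Normalised reads plus 1, on a log axis, of the 5 libraries in the 10 kidney-high windows with the largest fold, in order of fold; each point is 1 library. In every window the kidney point is at 67.2 normalised reads or more and the other 4 points are at 8.87 or less.

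The deepest kidney-high window was also on chromosome 13, from 55516086 to 55516586, inside the same row as the leading window. Kidney held 561 reads there, lung 77, brain 8, spleen 7 and liver 3, 8.25-fold (6.49 to 10.6) over lung. Brain and lung had peaks there too. Next by depth came a window on chromosome 1 from 166377841 to 166378791, where kidney held 218 reads, lung 49, brain 45, liver 35 and spleen 7. On chromosome 11, from 54725046 to 54725546, kidney held 216 reads, lung 57, liver 10, spleen 8 and brain 4, a fold of 4.29 (3.19 to 5.85). In these deep windows lung or brain was the runner-up, with 45 to 77 reads, where the leading windows by fold had at most 9 in any other library. They were picked by depth after their values were seen.

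The windows with most reads of all were not kidney-high. The deepest, on chromosome 2 from 98506936 to 98507436, held 9880 kidney reads, but brain held 6457, lung 7162, liver 10337 and spleen 19435. The 16 kidney windows that were deeper than any kidney-high one were thus led by places with very many reads in every library. The top 1% of kidney windows by depth, 784 windows, held 7.37% of the reads in kidney windows.

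Windows with a kidney peak and no other were mostly shallow, and part of them held reads of other tissues. Of the 26409, 4865 had at least 20 kidney reads, and 1623 of those were kidney-high, 33.4%. The same share was 33.1% for liver-only windows in liver, 68.8% in spleen, 24.9% in brain and 9.53% in lung. In 736 of the 4865 (15.1%) the next highest library lay within 2-fold of kidney, and in 51 it lay above kidney. Another library had at least 20 reads in 133 of them. So the absence of a listed peak did not mean that a tissue had no reads there.

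The kidney-only windows with most reads, leaving out those in the 6 runs with most kidney-high windows, started with 2 on chromosome 13 in the Slc34a1 row: that from 55509486 to 55509986, with 187 kidney reads, 15 in lung and 1 to 3 elsewhere, and the leading window above. On chromosome 4, from 62832891 to 62833391, kidney held 108 reads, lung 10, liver 9, spleen 6 and brain 4, with a lower interval bound of 5.43-fold over spleen. On chromosome 17, from 26158546 to 26159046, kidney held 95 reads, brain 9, lung 8, liver 6 and spleen 3, 10.6-fold (5.37 to 24.0) over brain. Both had a dense centre, at 8.17 and 5.57 times their flanks. A window on chromosome 3, from 96638406 to 96639406, held 102 reads in kidney, 15 in spleen, 13 in liver, 10 in lung and 1 in brain, 4.61-fold (2.67 to 8.54) over spleen, and 9.70-fold over the next highest library with spleen left out. By contrast, the window on chromosome 4 from 49548156 to 49548656 held 106 reads in kidney and 75 in liver, 1.86-fold (1.37 to 2.53), against 2 to 5 in the other 3, although liver had no listed peak in it.

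Many kidney-high windows stood in rows. Runs, defined as at least 3 kidney-high windows each within 5 kb of the next, numbered 125 and held 979 of the 2038 (the rest, 1059, stood outside runs). Kidney positions as a whole also stood close together, with a median spacing of 2250 bp and quartiles of 1050 and 9200 bp. The share of all kidney windows in rows by the same rule was not counted, so rows are not shown to be particular to kidney-high windows. The median span of the 125 runs was 8.15 kb, 16 spanned over 20 kb and 3 over 50 kb. In each tissue's own windows the share of high windows in runs was 61.5% in liver, 50.7% in lung, 36.3% in brain and 14.3% in spleen. Neighbours within 5 kb counted as 1 place gave 1044 kidney-high places. Over the whole span of a run, spleen was the next highest library in 68 runs, lung in 32, liver in 17 and brain in 8.

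The reads between the windows of a run, which the call did not use, were also higher in kidney. In 124 of the 125 runs at least 20 kidney reads lay between the windows. Kidney was at least 2-fold above the next highest library there in 114 of these, at least 4-fold in 58, and the lowest fold was 1.24. The median fold between windows was 3.91, against 4.93 over the whole runs. Such reads come from the same library and the same places as the called windows, so they are not an independent test.

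The longest run lay on chromosome 2 from 69261121 to 69424271, at the place of Lrp2, and spanned 163 kb with 127 kidney-high windows among 151 kidney windows. The whole span held 10912 reads in kidney, 1680 in lung, 885 in spleen, 861 in liver and 465 in brain, 7.36-fold (6.99 to 7.75) over lung. Runs are made of windows called at 4-fold over every other library, so a high fold over a run is partly built in. The intervals given for runs do not cover this choice. Kidney density was 67.1 normalised reads per kb inside, against 7.37 in the 20 kb on the low-coordinate side and 9.38 on the other. In the other libraries the inside ran from 2.84 in brain to 9.12 in lung. Lung was thus also above its own flanks, which held 2.57 and 4.21. The other libraries were close to theirs: brain 2.59 and 2.74, liver 4.03 inside against 4.54 and 3.44, spleen 8.02 against 7.91 and 8.87. All 163 bins of 1 kb held at least 2 times the mean kidney density of the genome. From the first to the last of 10 equal stretches, in the direction of rising coordinates, kidney density went from 94.0 to 50.4 normalised reads per kb, and lung density from 14.1 to 5.70. Between the windows alone, kidney held 4595 reads and lung 718, 7.25-fold (6.70 to 7.85).

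The second run, on chromosome 2 from 124978186 to 125063086, lay at the place of Slc12a1 and spanned 84.9 kb with 57 kidney-high windows. It held 5261 reads in kidney, 873 in lung, 517 in spleen, 424 in liver and 307 in brain, 6.83-fold (6.35 to 7.34) over lung. Kidney density was 62.2 normalised reads per kb inside and 4.67 and 9.88 in the 2 flanks. Lung density was 9.11 inside and 3.32 and 4.34 in the flanks, while brain, liver and spleen were not above both of their flanks. Its densest 1 kb, 40.5 kb from the low-coordinate end, held 249 reads, where the median bin held 57. All 84 bins lay at 2 times the genome mean or more.

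The run at the place of Aadat, on chromosome 8 from 62988281 to 63026801, had the highest fold of the 6 runs with most kidney-high windows. It held 2352 reads in kidney, 233 in lung, 219 in liver, 165 in spleen and 51 in brain, 9.67-fold (8.25 to 11.4) over spleen. With the mean genome density of each library subtracted, the fold over the next highest library was 34.2. Its low-coordinate flank still held 21.0 normalised kidney reads per kb, against 6.52 on the other, so polymerase also lay beyond the called run on that side. Of its 38 bins of 1 kb, 34 reached 2 times the genome mean, and the densest held 215 reads. The row was uneven, with 127 normalised kidney reads per kb in the densest of 10 equal stretches and 23.4 in the sparsest.

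At the place of Slc34a1, the run on chromosome 13 from 55500836 to 55518786 was short but the densest of those described. It spanned 18.0 kb and all 16 of its kidney windows were kidney-high. It held 4203 reads in kidney, 517 in lung, 147 in spleen, 105 in liver and 84 in brain, 9.21-fold (8.40 to 10.1) over lung. Kidney density was 235 normalised reads per kb, and 8.58 in the flank on the high-coordinate side. Lung density was 25.5 inside and 4.78 and 4.96 in the flanks, while brain, liver and spleen were not above both of their flanks. The densest 1 kb, 15.5 kb from the low-coordinate end, held 919 reads, and the ninth of 10 equal stretches, which holds it, was the highest in lung too, at 76.5 normalised reads per kb. This run had fewer windows than the 6 first ones and is described because it holds the leading window.

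**Figure D4:**
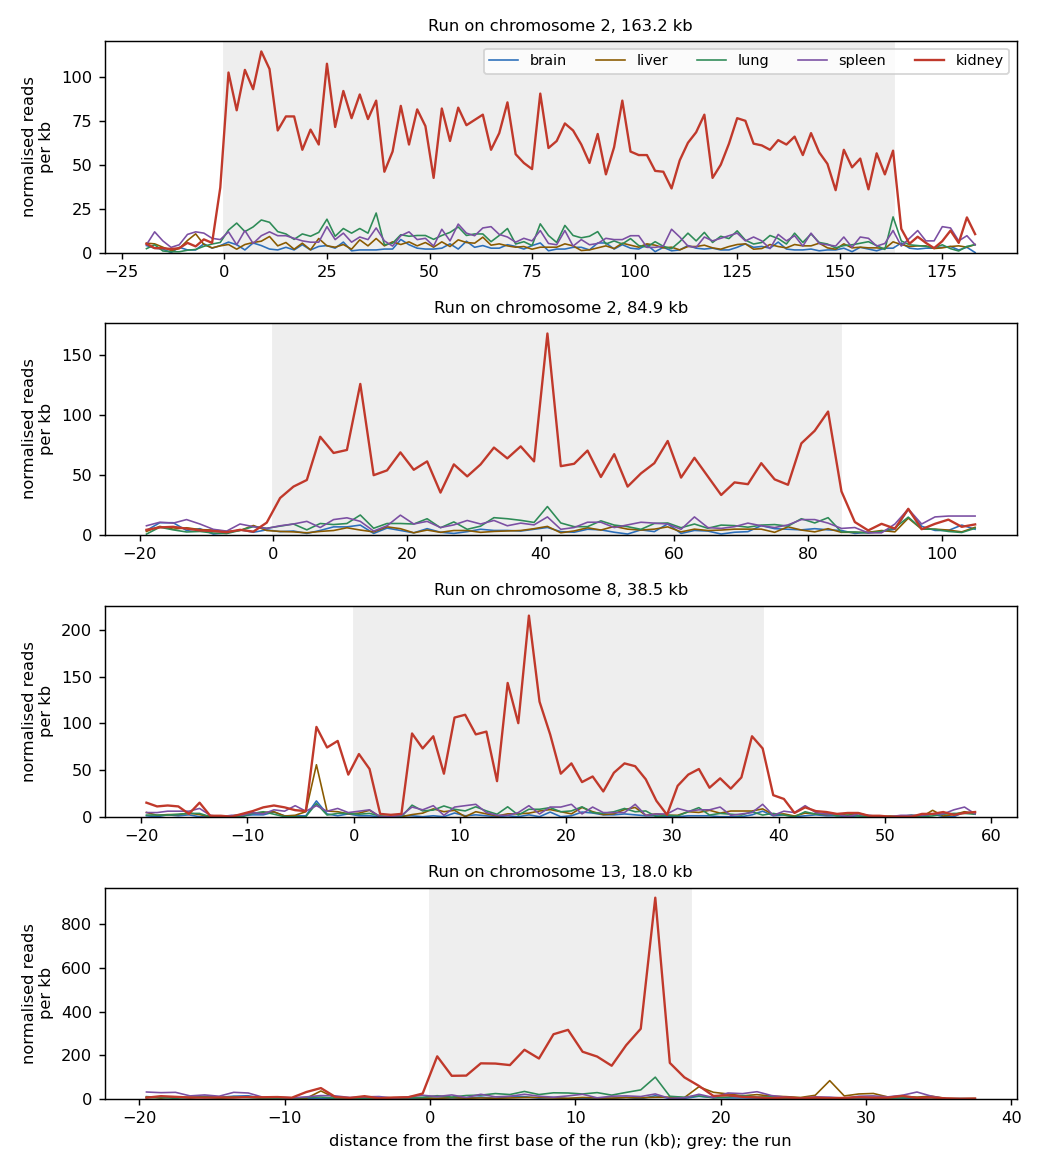
Normalised reads per kb of the 5 libraries along the kidney-high runs at the places of Lrp2, Slc12a1, Aadat and Slc34a1 (top to bottom), from 20 kb before to 20 kb after each run, in bins of 2 kb for the first pair and 1 kb for the others. Kidney lies above the other 4 libraries over most of each grey run, with inside means of 67.1, 62.2, 61.3 and 235 normalised reads per kb. Just before the Aadat run kidney is also high, and liver reaches 55.8 in the bin 3.5 kb before it.

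Near the leading window of chromosome 7 lay 2 more runs, described for that reason. The run from 126603876 to 126622926, 82.0 kb away and at the place of Umod, held 1474 reads in kidney, 240 in lung, 152 in spleen, 119 in liver and 71 in brain, 6.58-fold (5.56 to 7.83) over spleen. Kidney density was 77.6 normalised reads per kb inside and 12.8 and 8.48 in the flanks, so the row was bounded on both sides. Lung density was 11.2 inside and 3.81 and 3.76 in the flanks, and spleen density 11.8 inside and 8.95 and 8.73. Brain and liver were not above both of their flanks. The run from 126734711 to 126760411, 29.3 kb away, held 1124 reads in kidney, 195 in liver, 181 in lung, 149 in spleen and 68 in brain, 5.12-fold (4.31 to 6.11) over spleen. Its high-coordinate flank held 42.4 normalised reads per kb in kidney and 22.8 in liver, so reads of both went on beyond the run there.

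The other 3 of the 6 runs with most kidney-high windows had folds of 5.13 to 6.12 over the next highest library. On chromosome 3, from 129405186 to 129458536, kidney held 2677 reads, lung 545, liver 357, spleen 325 and brain 223. Its low-coordinate flank held 47.0 normalised kidney reads per kb, close to the 50.3 inside, and it holds another of the 125 runs, from 129388586 to 129399236, with 8 kidney-high windows. The rule of 5 kb between windows sets these runs apart. On chromosome 15, from 66759246 to 66798846, kidney held 3476 reads, lung 767, brain 390, liver 383 and spleen 372. On chromosome 16, from 92063496 to 92101846, kidney held 2745 reads, lung 464, brain 436, liver 389 and spleen 304, and the high-coordinate flank held 56.7 normalised kidney reads per kb against 71.8 inside. A further run of 4 kidney-high windows starts in that flank, at 92120296. With scaling by total reads, the chromosome 3 run was 3.86-fold and the chromosome 15 run 3.57-fold over the next highest library.

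Rows of kidney peaks also occurred without being restricted to kidney. Chains of at least 10 kidney positions, each within 2 kb of the next, numbered 809 and held 13001 of the 81375 positions (16.0%). The share was 16.5% in liver, 13.3% in brain, 9.28% in lung and 1.22% in spleen, in each list by its own positions. The chain with most positions, 130, lay inside the Lrp2 run. The next, on chromosome 1 from 73981976 to 74057526, held 83 positions over 75.6 kb. It had 7094 reads in kidney, 3814 in lung, 2137 in liver, 752 in brain and 706 in spleen, so lung was high there too. On chromosome 6, from 91633881 to 91712881, 78 positions spanned 79.0 kb, where kidney held 4378 reads, lung 2341, brain 2144, liver 2039 and spleen 972. On chromosome 4, from 45477661 to 45545661, kidney held 2550 reads and liver 2519, and the remaining 3 libraries held 515 to 1221. These chains were added after the data were seen.

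The shape of kidney windows differed between runs, lone windows and windows common to all tissues. Centre density over the density 1 to 5 kb away had a median of 1.43 (quartiles 1.16 and 1.90) in kidney-high windows in runs, 3.30 (2.13 and 5.37) in the 1059 kidney-high windows outside runs and 6.72 (3.61 and 10.5) in windows with a peak in all 5 tissues. Windows of a run have neighbours in their flanks, which lowers this ratio by construction. The flanks of run windows held a median of 51.9 normalised kidney reads per kb, against 18.9 for lone windows and 11.3 for the common ones. In the windows common to all, the ratio was 9.46 in lung, 9.26 in brain, 8.53 in liver and 5.13 in spleen, so kidney lay between spleen and the other 3. These are windows placed by kidney positions.

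Reads of the 2 strands stood apart by a like distance in the classes compared. The profiles are of kidney reads around kidney peak positions, so a separation of the strands there is partly built in and is a description only. The densest bin of plus-strand reads lay 190 bp before the kidney position in kidney-high windows in runs, in those outside runs and in windows common to all 5 tissues. The densest bin of minus-strand reads lay 210 bp after it in both kidney-high classes and 190 bp after it in the common windows. The sheared fragments were 0.2 to 0.8 kb long per the labels' protocols. Averaged over 5 bins, plus-strand density at the maximum was 59.5 reads per kb per window in runs, over 31.8 at the outer edges of the plotted range, while outside runs it was 48.2, with a lower level at the edges. At windows common to all it was 66.5 over 10.9.

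**Figure D5:**
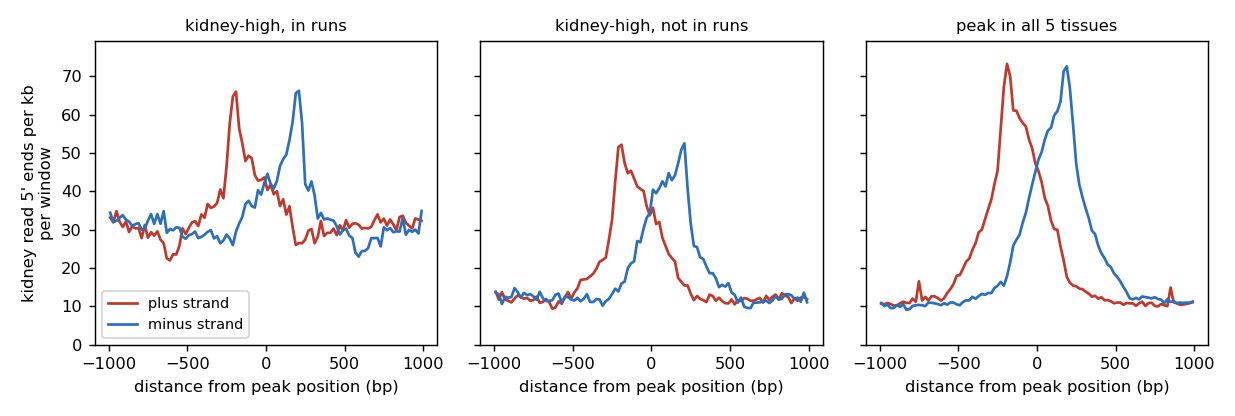
Kidney read 5′ ends per kb and per window, by distance from the kidney peak position in bins of 20 bp, on the plus (red) and minus (blue) strand, for kidney-high windows in runs, kidney-high windows outside runs and windows with a peak in all 5 tissues. Windows with 1 position and under 500 kidney reads are used; the strands separate in all 3 panels, and the level at the edges is highest in runs, at 31.8 for the plus strand.

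Kidney-high windows were spread over all chromosomes except Y, unevenly. Chromosome 2 held 338 of the 2038, 14.2% of its 2379 windows with 20 reads, of which the Lrp2 run gave 127 and the Slc12a1 run 57. Chromosome 3 followed at 12.9% of 1128, then chromosome 16 at 11.7% of 1071 and chromosome 13 at 10.5% of 897. The lowest shares on the autosomes were 4.38% on chromosome 17, 4.76% on chromosome 5 and 5.21% on chromosome 4. On X, 19 of 257 windows (7.39%) were kidney-high. Windows of a run are not separate places, so a single long run can carry a chromosome's share. The numbers of runs were 16 on chromosome 2, 15 on chromosome 9 and 11 on chromosome 7, and 2 to 10 on the other chromosomes apart from Y, which had 0.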

How the data were processed

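RNA polymerase II was measured in 5 libraries, 1 per tissue. The authors deposited aligned reads as positions with strand, and peaks as single positions with no width, score or p-value. Bowtie was used, per the submitters' processing notes; the sources used here give neither its version and settings nor the peak caller and build. Only lines of 34 to 36 bases were used (4 to 15 dropped in each library), which left 13786536 reads in kidney, 13283124 in spleen, 10846976 in lung, 10292262 in brain and 14964934 in liver. Reads repeating a position and strand, 4.51% in kidney and 7.12% to 8.87% elsewhere, were kept.

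Read 5′ ends were counted in kidney peak positions extended by 250 bp and merged. Counts under 3 were set to 3 before folds and before the next highest library was picked. Kidney-high means at least 20 kidney reads and 4-fold over each other library. Another tissue has a peak in a window where its own extended position overlaps it by at least 1 bp. The interval of a fold is the 95% Clopper-Pearson interval (exact binomial, conditional on the sum) of its 2 raw counts; where the next highest library held under 3 reads, counts alone are given. Named are the 10 kidney-high windows with the largest fold among those with at least 50 reads, the 6 runs with most kidney-high windows and the 6 kidney-only windows with most reads outside them; others are said to be picked later. No p-value was computed. The calling code was run on simulated Poisson counts with known folds, as a check of the code only. Uneven backgrounds and repeated reads of the real libraries were not simulated. Members and lists were chosen with earlier results of these data known. Lists of nephron genes had been planned for an annotation of the files' build; coordinates were not converted between builds, and gene lists were not analysed here. The 5 gene names given to places come from background knowledge of mm9. Software was SciPy 1.17.1, pandas 2.3.3 and NumPy 2.4.6 under Python 3.11.15, and Matplotlib 3.10.9 for plots.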

Additional observations from a re-analysis of the deposited data

How the results depend on the processing

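No paired analysis was possible because each tissue had 1 library. The counts of kidney windows depended on window size, read minimum and fold. Values are given in the order kidney-high windows, those in runs, then windows at 4-fold over brain, liver, lung, spleen and the 4 pooled, where the main values were 2038, 979, 8930, 7808, 6852, 7150 and 5165. With 100 bp to each side they were 472, 140, 1195, 977, 962, 1527 and 866. With a minimum of 40 kidney reads they were 698, 347, 1876, 1478, 1422, 1941 and 1305. Those that moved by over 1.5 times elsewhere were as follows. With 500 bp to each side, 638 were kidney-high and 260 in runs, 3035 over spleen and 2232 over the pool. With 3-fold in place of 4-fold there were 3735, 1917 and, over the pool, 8225; with 6-fold, 606 and 245, and 5001 over liver, 3816 over lung, 2672 over spleen and 2089 over the pool. With the genome mean subtracted, 3216 were kidney-high and 1597 in runs. Thinning to the smallest library gave 5181 over brain, 4607 over liver and 4091 over lung, and a minimum of 10 reads gave 20441, 20478 and 17364. Scaling by total reads gave 4132 over lung, also with spleen left out as well (an alternative chosen after seeing the data), and 11141 over spleen. Kidney-high windows then numbered 1515, of which 1247 were among the 2038. Kidney-only windows, 26409, became 14324 of 39314 with the peaks of most reads in each list (36.4%), 10133 of 30623 with equal numbers of peaks (33.1%) and 17055 of 61706 with 500 bp (27.6%), against 33.7% of 78414, so the first 2 counts fell with the number of windows. The kidney-only share also depended on how overlap was defined. It was 47.7% of 81344 windows with 100 bp, and 42.8% when another tissue's position had to lie inside the window. When no other peak was allowed within 1 kb it was 23.7%. Folds of single windows depended on the window size. That on chromosome 4 at 49548156 turned to 0.674-fold with 500 bp. Of the 10 leading windows, all but that on chromosome 7 moved by over 1.5 times under some alternative. With 100 bp, the fold was 2.10 on chromosome 8 at 63003001, 4.45 at 63002451, 5.50 on chromosome 2 at 69277021, 6.03 on chromosome 13 at 74281561, 7.08 on chromosome 14 at 21663066, 9.17 at 21658616 and 9.70 on chromosome 5 at 104863941. With 500 bp it was 5.70 and 5.86 for the 2 windows on chromosome 14, 6.42 on chromosome 5, 9.49 and 11.1 on chromosome 13 at 74281561 and 55500836 and 9.98 on chromosome 2, and for kidney-only windows 9.35 on chromosome 13 at 55509486 and 6.77 on chromosome 17. Moving reads by 100 bp gave 7.75 on chromosome 14 at 21658616, and also lowered that on chromosome 2 by over 1.5 times. Subtracting the genome mean raised the run folds to 11.4, 10.5 and 8.45 for the first 3 runs, 34.2 for that on chromosome 8 and 15.3 for that on chromosome 7 at 126734711, and gave 26.8 for the window on chromosome 8 at 63004651, which had 36.2 with spleen left out and 27.1 with total reads as well. Without spleen, the window on chromosome 3 at 96638406 was at 9.70-fold, and at 8.03-fold with total reads as well. In the chromosome 8 run, subtracting the genome mean set brain, liver and spleen to the minimum of 3 reads. The cause of the listed changes was not tested. The alternatives planned for genes were not run, since no annotation of the files' build was used here. Of the 78414 windows, 26851 reached the 20 reads a call needs.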
